A study of Mus musculus with 6 samples.

Results

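The genes described here are the semaphorins, plexins, neuropilins, Slits, Robos, netrins and Unc5 receptors, which are families of guidance cues and their receptors. Members were taken by a rule on gene symbols alone, and 44 of the 39017 genes in the count table matched: 20 semaphorins, 9 plexins, 2 neuropilins, 3 Slits, 4 Robos, 2 netrins and 4 Unc5 receptors. They were measured by RNA sequencing in adherent cells grown from the marrow of crushed long bones and labelled as macrophages positive for F4/80 and CD169. There were 3 libraries from old mice (over 78 weeks of age) and 3 from young mice (3 weeks of age). All animals were wild-type BALB/c mice of an inbred strain, and each library was made from 10000 cells. Nothing in the labels says whether libraries of the same age came from separate animals, so p-values speak to the spread among these 6 libraries alone, which may be technical.

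Semaphorins are secreted or membrane-bound ligands that signal through plexins, and the secreted class 3 proteins use the neuropilins as the ligand-binding part of the receptor. Slits bind Robo receptors, and netrins bind the receptors of the DCC and Unc5 families. The families were named for steering growing axons, and they also direct the migration of immune and endothelial cells. In bone, semaphorin signals pass between osteoclasts, the bone-resorbing relatives of macrophages, and the bone-forming osteoblasts.

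Total counts ranged from 36136137 to 43367734 in old libraries and from 34391206 to 35813492 in young ones. Levels are given as CPM, counts scaled to library size. The macrophage markers were present in every library but at a lower level with age: 7 of 8 were called lower in old libraries, where their summed level was 4095 to 4431 CPM, against 7170 to 9125 CPM in young libraries. The cultures also held stromal RNA, with 8 fibroblast and stromal markers summing to 23508 to 29603 CPM in old and 30751 to 68390 CPM in young libraries, of which 2 were called higher and 1 lower. The collagen genes of the list made up most of these sums and were not called, and the highest sum was that of young replicate 3. Pdgfra (145.2 CPM on average in old, 61.8 CPM in young libraries) and Cxcl12 (1511 and 588 CPM) were higher, and Lepr (18.3 and 30.4 CPM) was lower. Pdgfrb, higher in every old library, and Dcn, whose ages overlapped, were not called. Osteoblast markers summed to 744 to 976 CPM in old and 1620 to 3419 CPM in young libraries, and 4 of 6 were called lower. Alpl made up most of the old sums and was not called, nor was Bglap. The furthest falls were those of Dmp1 (0.445 CPM on average in old, 48.2 CPM in young libraries, log2 fold change -6.74) and Ibsp (54.8 and 1203 CPM, log2 fold change -4.46). The summed level of 6 endothelial markers was 17.4 to 22.1 CPM in old and 18.8 to 38.3 CPM in young libraries, with 0 of 6 called by edgeR (2 at an unadjusted p under 0.05, 1 by DESeq2 and 0 by limma-voom). No marker of these 4 lists was at 0 in all libraries. The part of these marker differences in the results below was not tested. In such bulk cultures fewer cells of a type and less RNA per cell cannot be told apart. Young replicate 3 stood apart from the other libraries along the second principal component (16.1% of the variance), and the members summed to 2137 CPM in it, against 1497 to 1613 CPM in old libraries and 1692 and 1711 CPM in young replicates 1 and 2.

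Of the tested guidance genes, 8 of 17 semaphorins, 1 of 2 netrins, 1 of 2 neuropilins and 1 of 3 Robos changed with age, and most members did not pass the test. Of the 44 members, 37 passed the filter on low counts and were tested with edgeR's quasi-likelihood test, with p-values adjusted by Benjamini and Hochberg's method over 15567 genes. At an adjusted p of 0.05, 3 members were higher in old libraries, which is 8.11% of those tested, where the background over all genes was 5.84%. Lower in old libraries were 8 members, which is 21.6%, where the background was 4.70%. In either direction 11 members were called, 29.7% against a background of 10.5%. The members were chosen with earlier results of these data known, so these shares describe them and are not a test. The members' median log2 fold change, old minus young, was -0.06, and the median over all tested genes was -0.01. The library values of the ages did not overlap for 6 members higher in old libraries, 16.2% against a background of 15.9%, and for 12 members lower in old libraries, 32.4% against a background of 14.3%. By family, 6 of 17 tested semaphorins fell and 2 rose, 1 of 2 neuropilins and 1 of 3 Robos fell, 1 of 2 netrins rose, and 0 of 8 plexins, 0 of 2 Slits and 0 of 3 Unc5 receptors passed. In these last 3 families DESeq2 and limma-voom also called 0, and 2 members, Plxna1 and Unc5b, had an unadjusted p under 0.05 in edgeR's test. In simulated data with 50 genes changed at each size, edgeR's test recovered 16% of 1.5-fold and 66% of 2-fold changes. Far fewer genes were changed there than were called here, so these rates are not the power of the real fit. A member that did not pass may still have changed.

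These counts changed when a library was left out, as did those over all genes. Without old replicate 1, 2 or 3, or without young replicate 1, only 1 member was called higher, which was Ntn4 each time. Over all genes, 418, 433, 492 and 539 were higher in these fits, against 909 with all libraries. Without old replicate 1, 5 members were called lower, where 309 of all genes were lower, against 731 with all libraries. Without young replicate 3, 6 were higher and 6 lower, each 15.4% of the 39 members tested in that fit, where 9.14% of all genes were higher and 7.32% lower. Nrp2, Robo2, Sema4f, Sema6a and Ntn4 were called in the same direction in each of the 15 alternative fits, including the 6 that leave out a library.

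**Figure D1:**
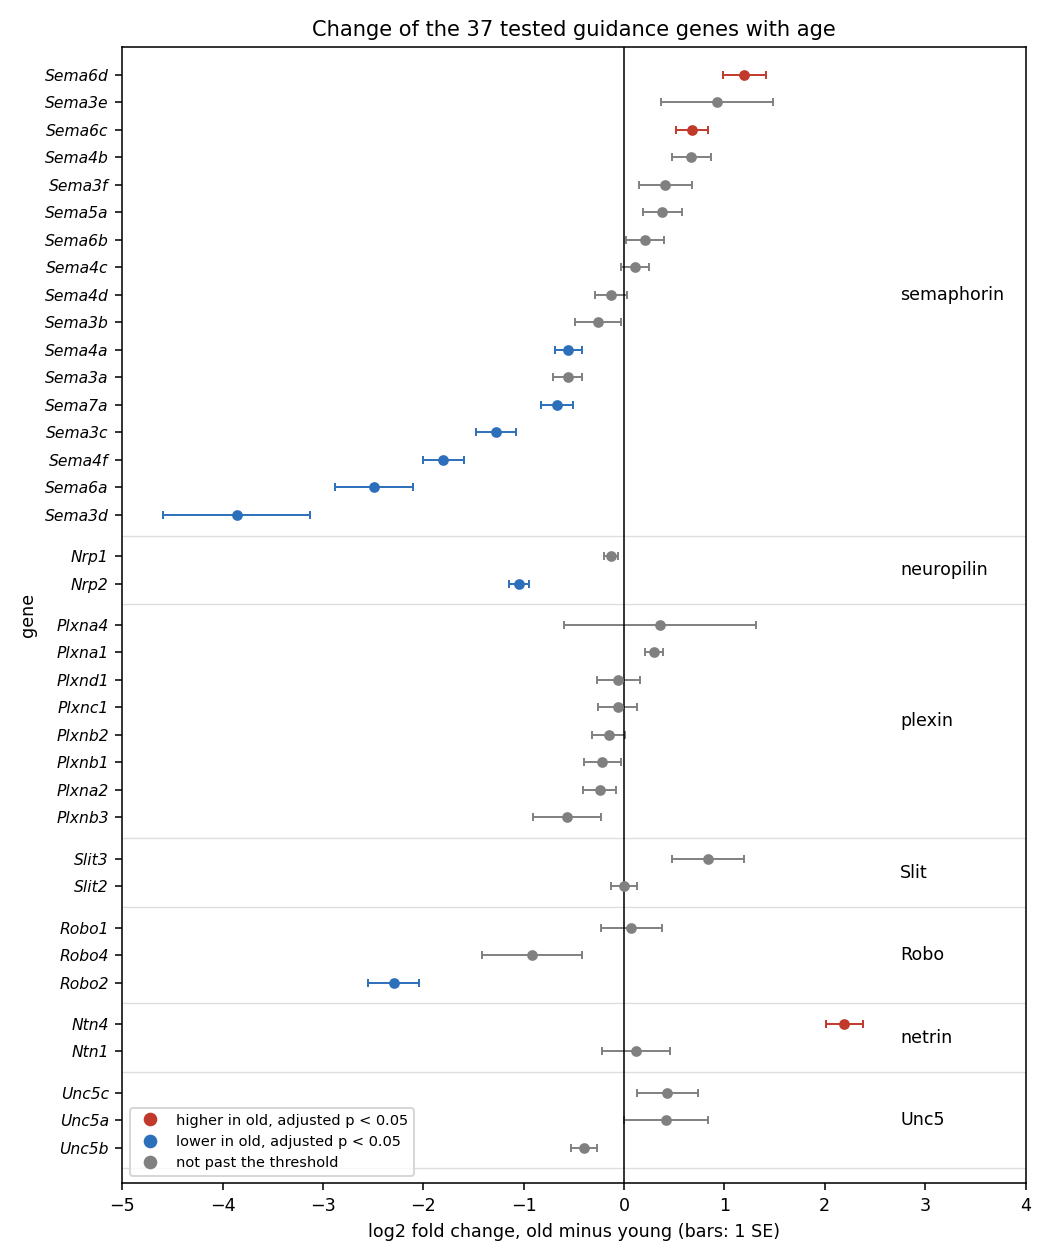
Log2 fold change (old minus young, horizontal axis) of the 37 tested members, grouped by family, with bars of 1 SE; red points are called higher and blue points lower in old libraries. The 8 plexins lie between -0.57 and 0.36 and are all grey, while the semaphorins spread from -3.86 for Sema3d to 1.20 for Sema6d.

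Both neuropilins were abundant, and Nrp2 fell. Nrp2 encodes neuropilin 2, which binds class 3 semaphorins and members of the VEGF family. It had 179.8, 188.8 and 199.1 CPM in old replicates 1, 2 and 3, against 387, 347 and 439 CPM in young replicates 1, 2 and 3. Each old library lay well below each young one. The log2 fold change came to -1.05 (SE 0.10), a 2.07-fold lower level (adjusted p = 0.00149). Its relative Nrp1, the neuropilin that also serves as a VEGF receptor on endothelium, had 229.2, 228.6 and 229.3 CPM in old libraries and 233.9, 254.6 and 263.5 CPM in young ones. The ages did not overlap for Nrp1 either, but the difference was small and did not pass (log2 fold change -0.13, SE 0.07, adjusted p = 0.347).

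Robo2, a Slit receptor, fell to 3.15, 2.67 and 3.52 CPM in old libraries, against 14.8, 10.9 and 20.3 CPM in young ones. The log2 fold change came to -2.30 (SE 0.25), or 4.91-fold lower (adjusted p = 0.00246). Every young library lay well above every old one. Robo1, the related Slit receptor encoded on the same chromosome 16, had 14.3, 8.36 and 17.7 CPM in old libraries and 10.9, 10.4 and 17.02 CPM in young libraries, with a log2 fold change of 0.07 (SE 0.31, adjusted p = 0.926). For Robo1 the ages overlapped, and the sign of the change turned without old replicate 3 or young replicate 1 or 2. Robo4, the endothelial member, averaged 1.41 ± 0.252 CPM in old and 2.67 ± 1.59 CPM in young libraries (SD, n = 3 each) and did not pass (adjusted p = 0.328). Without young replicate 1, which had 0.941 CPM, Robo4 was called lower (adjusted p = 0.0499).

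Ntn4 was the netrin that changed. Ntn4 encodes netrin 4, a laminin-binding protein of basement membranes. It had 347, 362 and 272 counts in old libraries, or 7.91, 9.40 and 7.55 CPM, against 54, 67 and 67 counts, or 1.54, 1.89 and 1.99 CPM, in young libraries. All old values were several times the young ones. The log2 fold change came to 2.19 (SE 0.19), or 4.58-fold higher (adjusted p = 0.00102), the smallest adjusted p among the members. Ntn1, the founding axon guidance netrin, lay at 1.60, 1.95 and 2.19 CPM in old and 1.37, 1.27 and 2.64 CPM in young libraries, and its ages overlapped (log2 fold change 0.12, SE 0.34, adjusted p = 0.888).

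Sema4f, a membrane-bound class 4 semaphorin, had 3.33, 2.65 and 2.28 CPM in old libraries and 9.79, 8.12 and 10.99 CPM in young libraries. Its log2 fold change came to -1.80 (SE 0.20), or 3.49-fold lower (adjusted p = 0.00271). Sema6a, a transmembrane ligand of plexins A2 and A4, had 26, 26 and 51 counts in old libraries, or 0.593, 0.675 and 1.42 CPM, against 154, 147 and 219 counts, or 4.39, 4.16 and 6.51 CPM, in young libraries. Both genes were lower in each old library than in any young one. For Sema6a the log2 fold change came to -2.49 (SE 0.39), a 5.63-fold difference (adjusted p = 0.00877).

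**Figure D2:**
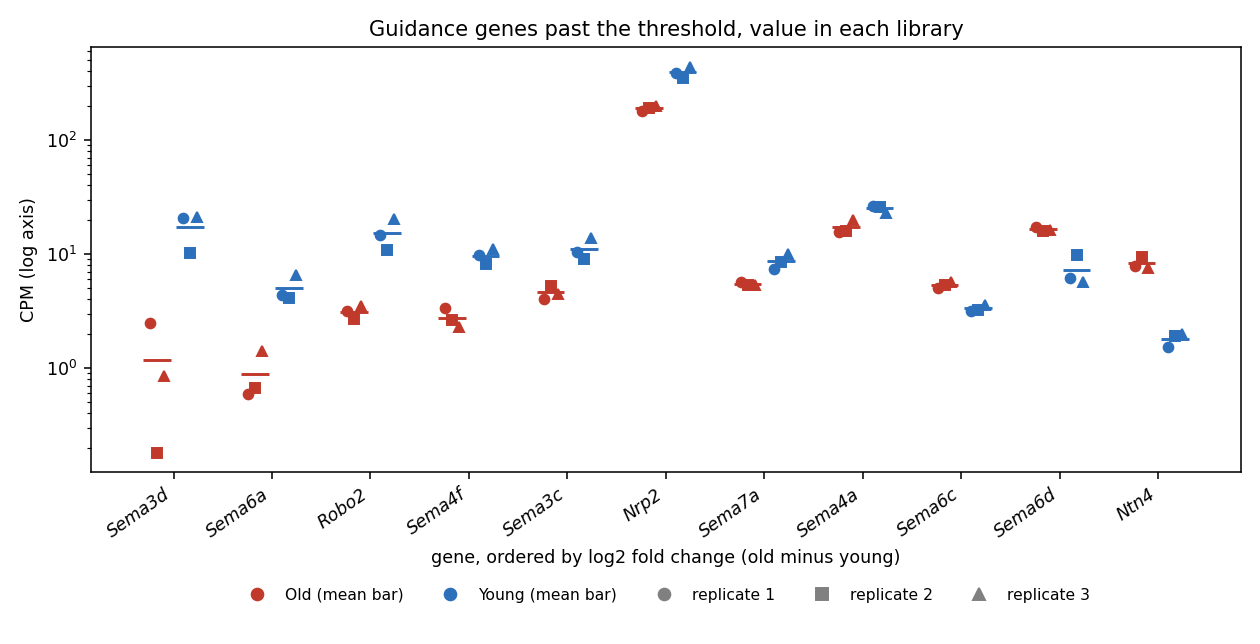
CPM (vertical log axis) of the 11 called members in each library, with old libraries in red left of young libraries in blue, symbols for replicates and bars for means. The ages do not overlap for any of the 11, and the spread is widest for Sema3d in old libraries, from 0.182 to 2.46 CPM.

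Promoter windows are shown for Nrp2, Sema4f and Ntn4, since these are members whose call held in each alternative fit and for which RefSeq (GRCm38.p6) gives a single start site. Each window holds the 250 bases before the annotated start, on the strand of the gene, and capitals mark motif matches. Nrp2 lies at chr1:62703285-62818695, Sema4f at chr6:82911885-82939769 and Ntn4 at chr10:93640681-93747207 in the mm10 annotation. The windows are chr1:62703067-62703316 on the plus strand for Nrp2, chr6:82939770-82940019 on the minus strand for Sema4f, and chr10:93640799-93641048 on the plus strand for Ntn4.
Nrp2: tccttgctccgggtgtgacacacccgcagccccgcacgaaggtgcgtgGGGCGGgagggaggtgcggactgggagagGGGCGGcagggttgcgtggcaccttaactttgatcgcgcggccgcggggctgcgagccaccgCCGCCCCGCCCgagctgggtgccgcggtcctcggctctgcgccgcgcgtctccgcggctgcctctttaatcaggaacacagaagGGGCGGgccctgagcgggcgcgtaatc
Sema4f: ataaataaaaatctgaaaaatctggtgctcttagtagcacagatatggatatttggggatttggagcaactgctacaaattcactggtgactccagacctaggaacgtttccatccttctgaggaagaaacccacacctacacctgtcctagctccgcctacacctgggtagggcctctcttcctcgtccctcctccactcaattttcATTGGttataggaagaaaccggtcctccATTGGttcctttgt
Ntn4: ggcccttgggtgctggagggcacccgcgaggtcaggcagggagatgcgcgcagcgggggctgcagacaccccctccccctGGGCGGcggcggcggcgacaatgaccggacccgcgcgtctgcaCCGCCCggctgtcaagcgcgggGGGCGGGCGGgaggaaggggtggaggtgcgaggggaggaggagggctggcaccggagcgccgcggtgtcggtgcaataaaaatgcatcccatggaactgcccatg
The motifs searched, on both strands, were the TATA box TATAAA, the CCAAT box CCAAT, the GC box GGGCGG, the E-box CACGTG, the RUNX motif TGTGGT and the AP-1 motif TGANTCA. The Nrp2 window holds 5 GC box matches and the Ntn4 window 4, some of which overlap, and the Sema4f window holds 2 CCAAT matches, both on the opposite strand. Among the 32851 windows of the same length in the table, 32.7% hold a GC box and 33.8% a CCAAT box. The other 4 motifs, which occur in 12.4% (TATA box), 6.02% (E-box), 14.05% (RUNX) and 6.75% (AP-1) of all windows, have no match in these windows. The number of CpG dinucleotides was 32 for Nrp2, 26 for Ntn4 and 4 for Sema4f, where the median over all windows was 6. Nrp2, which fell, and Ntn4, which rose, both have windows rich in GC boxes and CpG. For these 2 genes the mm10 annotation places the start of the gene inside or before the window, so the RefSeq start is not the only annotated one. A match is a description of the letters and does not show that a factor binds there.

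The remaining called semaphorins included secreted ligands. Sema3d, a class 3 semaphorin of endothelial and heart development, had 108, 7 and 31 counts in old libraries, or 2.46, 0.182 and 0.860 CPM, against 728, 361 and 706 counts, or 20.8, 10.2 and 20.97 CPM, in young libraries. The old libraries differed widely among themselves but all lay below the young ones. The log2 fold change of -3.86 (SE 0.73, adjusted p = 0.0181) was the furthest from 0 among the members. It became -5.06 without old replicate 1, and leaving out old replicate 3 or young replicate 1 or 3 ended the call (adjusted p up to 0.0787). Sema3c, a class 3 ligand of the neuropilins, had 4.06, 5.27 and 4.496 CPM in old and 10.5, 9.11 and 13.9 CPM in young libraries, with no overlap. Its log2 fold change came to -1.27 (SE 0.20, adjusted p = 0.00943), but leaving out old replicate 1 ended the call (adjusted p = 0.0503). Sema3a, Sema3b, Sema3e and Sema3f, the other tested class 3 members, did not pass. Of these, Sema3e (log2 fold change 0.93) and Sema3f (0.41), a ligand of neuropilin 2, went the other way from Nrp2. Sema3a, which protects bone in mice and binds neuropilin 1, had 19.55, 19.57 and 19.46 CPM in old and 29.6, 23.2 and 33.7 CPM in young libraries, with no overlap between the ages (log2 fold change -0.56, SE 0.15, adjusted p = 0.0537). Without young replicate 2 it was called lower (adjusted p = 0.0195).

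Smaller decreases were seen for Sema4a and Sema7a. Sema4a, a class 4 semaphorin that acts on T cells, had 15.6, 16.0 and 19.9 CPM in old and 26.6, 26.1 and 23.1 CPM in young libraries (log2 fold change -0.56, SE 0.13, adjusted p = 0.0411). Sema7a, a lipid-anchored ligand of plexin C1 and of integrins containing the beta 1 chain, had 5.68, 5.35 and 5.33 CPM in old and 7.45, 8.54 and 10.1 CPM in young libraries (log2 fold change -0.67, SE 0.16, adjusted p = 0.0388). For both genes the ages did not overlap. On leaving out a library, the Sema4a call held only without old replicate 3 or young replicate 3 (adjusted p otherwise up to 0.158), and the Sema7a call only without young replicate 1 (adjusted p otherwise up to 0.138). With the replicate number as a block both calls were lost (adjusted p = 0.0881 for Sema4a and 0.0829 for Sema7a). Macrophage markers were lower in the same old libraries (median log2 fold change of the 8 markers -1.02), and their part in these decreases was not tested.

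The semaphorins that rose were both class 6 membrane ligands. Sema6d, which in mouse osteoclast precursors and dendritic cells acts on plexin A1 together with Trem2 and the adaptor Tyrobp, had 17.2, 16.0 and 16.4 CPM in old and 6.19, 9.73 and 5.70 CPM in young libraries. The log2 fold change came to 1.20 (SE 0.21), or 2.30-fold higher (adjusted p = 0.0140). Leaving out any old replicate or young replicate 1 ended the call (adjusted p up to 0.0619). Sema6c had 5.02, 5.37 and 5.66 CPM in old and 3.20, 3.22 and 3.59 CPM in young libraries (log2 fold change 0.68, SE 0.16, adjusted p = 0.0380). In both cases every old library was above every young one. Of the 6 fits that omit a library, the one without young replicate 3 kept the Sema6c call (adjusted p otherwise up to 0.126), and it was lost with the replicate number as a block (adjusted p = 0.0817) and without the low-count filter (adjusted p = 0.0503). Plxna1, which encodes plexin A1 and shares 10.7% of its exon length with the gene model Gm26811, had 187.3, 197.0 and 195.0 CPM in old and 142.6, 153.4 and 175.3 CPM in young libraries. Its ages did not overlap, and the log2 fold change of 0.30 (SE 0.09) did not pass (adjusted p = 0.0936). Without young replicate 3 it did (adjusted p = 0.00914). Of its partners in the Sema6d complex, Tyrobp fell (144.3 ± 7.02 CPM in old, 192.7 ± 10.1 CPM in young libraries, SD, n = 3 each, log2 fold change -0.42, adjusted p = 0.0164), while Trem2 did not pass (log2 fold change -0.03, adjusted p = 0.906). Tyrobp is also on the list of leukocyte markers, and the part of cell types in its decrease was not tested.

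**Figure D3:**
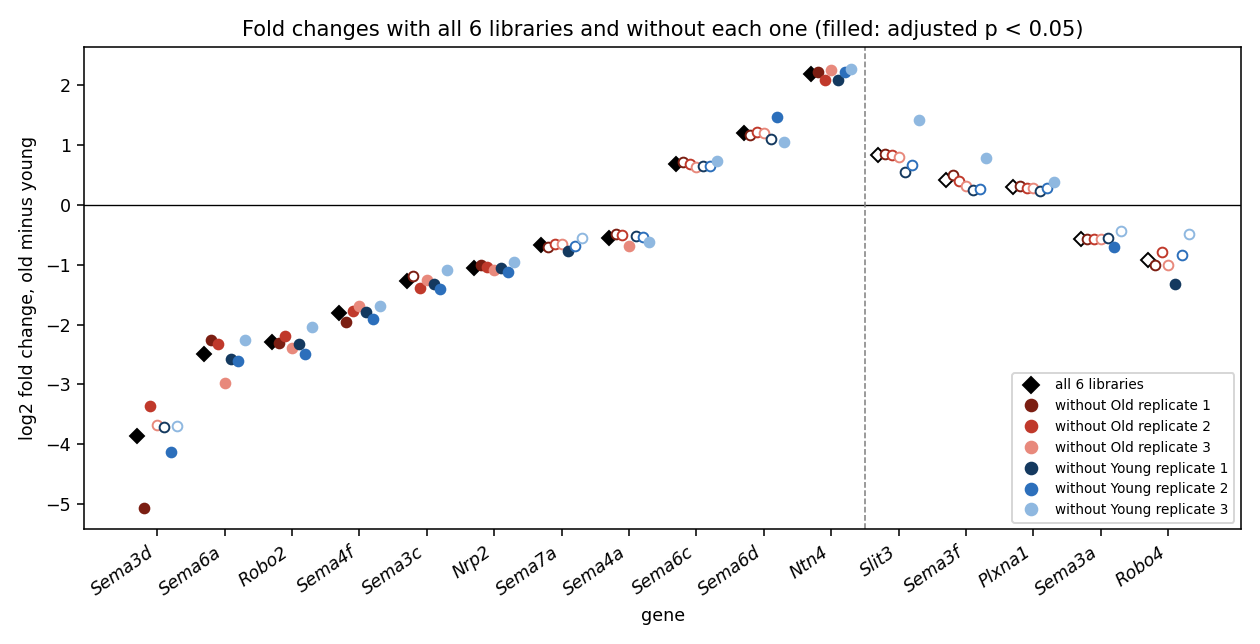
Log2 fold change (old minus young, vertical axis) of the 11 called members and, right of the dashed line, of the 5 members that were not called with all libraries but were when 1 was left out; the diamond uses all 6 libraries, each circle leaves out 1, and filled symbols have an adjusted p under 0.05. All symbols of Ntn4, Nrp2, Robo2, Sema4f and Sema6a are filled, and Slit3 moves from 0.83 to 1.42 without young replicate 3.

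None of the 8 tested plexins, the signalling receptors of the semaphorins, passed edgeR's test with all libraries (adjusted p from 0.0936 for Plxna1 to 0.915 for Plxnd1). Levels between genes are compared here as CPM per kilobase of annotated exon. Plexin B2, encoded by Plxnb2 and abundant in macrophages, was the highest plexin, at 53.4 ± 3.76 in old and 59.5 ± 13.8 in young libraries (SD, n = 3 each). Plxna1 followed at 21.3 ± 0.567 in old and 17.4 ± 1.84 in young libraries. Plxnd1, the receptor of Sema3e, had 5.98 ± 1.05 in old and 6.21 ± 1.59 in young libraries, and Plxnc1, the receptor of Sema7a, had 3.51 ± 0.0889 in old and 3.67 ± 0.986 in young libraries. Plxnb1, the receptor of Sema4d, and Plxna2 came next. Plxnb1 had 1.89 ± 0.225 in old and 2.20 ± 0.506 in young libraries, Plxna2 had 1.67 ± 0.0556 in old and 1.98 ± 0.451 in young libraries, and their library values overlapped within each age. In CPM, Plxnb2 had 386.7, 444.0 and 406.9 in old and 411.6, 385.3 and 581.7 in young libraries. The high value was that of young replicate 3, and the log2 fold change of -0.16 (SE 0.16, adjusted p = 0.636) became 0.05 without it. Plxna4 and Plxnb3 were low, at 0.508 and 0.768 CPM on average in old and 0.393 and 1.14 CPM in young libraries.

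Per kilobase of exon, the highest semaphorin was Sema4d, at 8.43 ± 1.32 CPM per kilobase in old and 9.21 ± 1.58 in young libraries (SD, n = 3 each). Sema4d, also known as CD100, is made by osteoclasts and restrains osteoblasts in mice. In CPM it had 63.7, 75.3 and 55.1 CPM in old and 63.4, 84.7 and 64.0 CPM in young libraries, with overlapping ages (log2 fold change -0.13, SE 0.16, adjusted p = 0.706). Sema3f, a ligand of neuropilin 2, had 22.1, 25.7 and 28.9 CPM in old libraries and 14.6, 15.04 and 28.2 CPM in young libraries (log2 fold change 0.41, SE 0.27, adjusted p = 0.423). The young value that reached the old range was that of replicate 3, and without that library Sema3f was called higher (log2 fold change 0.79, adjusted p = 0.0116). Sema4c, a ligand of plexin B2, averaged 17.3 ± 2.40 CPM in old and 16.0 ± 1.17 CPM in young libraries, Sema6b 15.8 ± 2.08 CPM in old and 13.7 ± 3.15 CPM in young libraries, and Sema3b 11.3 ± 2.15 CPM in old and 13.6 ± 3.67 CPM in young libraries (SD, n = 3 each). None of these 3 passed (adjusted p from 0.563 to 0.712). Sema4b was higher in every old library than in any young one, at 5.59 to 7.11 CPM in old and 3.56 to 4.98 CPM in young libraries, and did not pass (adjusted p = 0.0778).

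Slit ligands were expressed in both ages. Slit2 had 68.7, 80.4 and 88.5 CPM in old and 74.2, 72.8 and 90.8 CPM in young libraries, a log2 fold change of -0.0018 (SE 0.13, adjusted p = 0.996). Slit3, which in mice takes part in signalling between bone cells and vessels, had 32.4, 33.1 and 34.6 CPM in old and 10.9, 13.998 and 31.3 CPM in young libraries. The old libraries were alike and all above the young ones, among which replicate 3 was the high one. The log2 fold change of 0.83 (SE 0.36) did not pass (adjusted p = 0.218), and without young replicate 3 it was 1.42 and passed (adjusted p = 0.00116). Among the Unc5 netrin receptors, Unc5b had 33.98, 39.7 and 37.4 CPM in old and 48.2, 41.4 and 57.0 CPM in young libraries, without overlap (log2 fold change -0.40, SE 0.13, adjusted p = 0.115). Unc5c averaged 15.01 ± 3.54 CPM in old and 11.1 ± 4.03 CPM in young libraries (SD, n = 3 each, adjusted p = 0.464).

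The 8 tested members that stayed under 10 CPM on average in both ages and did not pass were Ntn1, Plxna4, Plxnb3, Robo4, Sema3e, Sema4b, Sema5a and Unc5a, with log2 fold changes from -0.92 to 0.93 and adjusted p from 0.0778 to 0.888. The 7 members that were not tested, Plxna3, Robo3, Sema3g, Sema4g, Sema5b, Slit1 and Unc5d, had at most 40 counts in any library. Robo3, the receptor of crossing axons in the nervous system, had 6, 7 and 5 counts in old and 12, 20 and 0 counts in young libraries, and Slit1, the Slit of the nervous system, had 4, 13 and 2 counts in old and 0, 0 and 7 counts in young libraries. Unc5d had 0 counts in all 6 libraries, which allows a level of up to 0.0891 CPM in each (3 counts of the library total, for counting error only). Sema5b had 0 counts in each old library and 0, 0 and 6 counts in young libraries.

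Taken within each library, the ratios of related genes differed between the ages. The ratio of Nrp2 to Nrp1, per exon length, was 0.648, 0.682 and 0.718 in old libraries and 1.37, 1.13 and 1.38 in young ones. That of Robo2 to Robo1 was 0.214, 0.311 and 0.194 in old and 1.32, 1.01 and 1.16 in young libraries. The ratio of Sema6d to Sema6a, a pair of class 6 ligands that went opposite ways, was 24.1, 19.8 and 9.63 in old and 1.17, 1.95 and 0.729 in young libraries. For Ntn4 over Ntn1 the ratios were 8.32, 8.10 and 5.78 in old and 1.89, 2.50 and 1.26 in young libraries. The ages did not overlap for any of these pairs, which were chosen after their values were seen and were not tested. For some pairs the higher gene depends on the length used. With the longest coding transcript as length, chosen after seeing the data, the mean Nrp2 to Nrp1 ratio was 0.442 in old and 0.836 in young libraries, in place of 0.683 in old and 1.29 in young. The mean Slit3 to Slit2 ratio was then 0.809 in old and 0.434 in young libraries, in place of 1.78 in old and 0.956 in young. For Robo2 over Robo1, Ntn4 over Ntn1, Sema6d over Sema6a and Sema3d over Sema3a, the gene with the higher mean was the same with either length. The relation between the ages does not depend on the length.

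**Figure D4:**
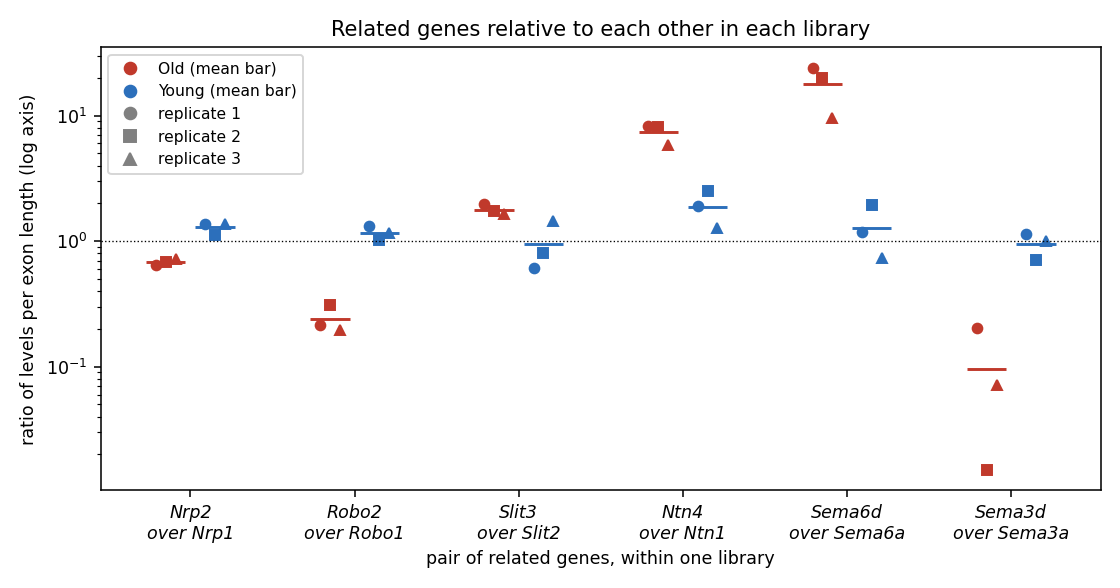
Ratio of the levels of related genes per exon length within each library (vertical log axis), old libraries in red left of young libraries in blue, with symbols for replicates and bars for means. Old libraries sit below young ones for Nrp2 over Nrp1, Robo2 over Robo1 and Sema3d over Sema3a, and above them for Slit3 over Slit2, Ntn4 over Ntn1 and Sema6d over Sema6a.

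A list of 86 further genes of these pathways held other ligands, co-receptors, intracellular effectors and proteases. Of its 77 tested genes 6 were higher and 3 lower in old libraries, which is 7.79% and 3.90%, close to the 5.84% and 4.70% over all genes, and the median log2 fold change was 0.01. Without young replicate 3 the counts were 14 higher and 6 lower, or 18.2% and 7.79%, where 9.14% and 7.32% of all genes were called. Without old replicate 1 or 2 or young replicate 2, 1 was lower. Met, the growth factor receptor that associates with plexin B1, had 21.1 ± 1.61 CPM in old and 7.31 ± 1.10 CPM in young libraries (SD, n = 3 each, log2 fold change 1.53, SE 0.15, adjusted p = 0.00146). Draxin, a secreted protein that binds DCC and netrin 1, had 7.26 ± 2.22 CPM in old and 0.890 ± 0.480 CPM in young libraries (SD, n = 3 each, log2 fold change 3.03, adjusted p = 0.00857). Vegfa, whose product binds the neuropilins, had 62.5 ± 0.820 CPM in old and 44.1 ± 1.65 CPM in young libraries (SD, n = 3 each, log2 fold change 0.50, adjusted p = 0.00833). Flrt3, a ligand of Unc5 receptors, fell to 2.95 ± 0.869 CPM in old libraries, against 8.76 ± 0.272 CPM in young libraries (SD, n = 3 each, log2 fold change -1.57, adjusted p = 0.00677). Also called higher were the small GTPase gene Rras2 (log2 fold change 0.68) and Lrig3 (0.70), and Adam17, a protease that sheds membrane proteins, was called lower (-0.34). Of the 27 tested genes of plexin and semaphorin signalling 2 were called, and of the 20 of Slit, Robo and netrin signalling 0 by edgeR (3 at an unadjusted p under 0.05, 2 by DESeq2 and 1 by limma-voom). Of the netrin receptors outside the members, Neo1, encoding neogenin, had 109.3 CPM on average in old and 104.4 CPM in young libraries (adjusted p = 0.885), while Dcc had at most 0.0471 CPM on average in either age.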

How the data were processed

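Whole-number counts of reads per Ensembl gene were deposited by the authors for 6 libraries. Per the labels' protocols, RNA was amplified with a SMART-Seq kit for low input and sequenced as read pairs of 100 bases. Kits of this kind keep no strand. Per the submitters' processing notes, the mm10 build was used with STAR 2.6.1a, HISAT2 2.1.0, StringTie 1.3.4d, SAMtools 1.9, Picard 2.18.15, Trim Galore 0.50 and cutadapt 1.18. For the counting tool, annotation release, strand setting and multiply mapped reads, details were not given in the sources used. Overlapping genes may therefore share reads. The share of exon length shared with another gene exceeded 10% for 1 member.

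Symbols were matched for 37607 identifiers. Positions and exon lengths came from GENCODE M21 (GRCm38, the mm10 build). Counts were tested in R 4.3.3 with edgeR 4.0.16 (filterByExpr on age, TMM, robust quasi-likelihood, Benjamini-Hochberg over 15567 genes, threshold 0.05). SE was taken as the size of the log2 fold change over the square root of F. CPM used TMM-scaled totals. Alternatives were DESeq2 1.42.0 size factors and test, upper-quartile factors, limma-voom (3.58.1), scaling that omits the 50 most abundant genes, no filter on low counts, a stricter filter (50 counts or more in 3 libraries), dispersion fitted without the robust option, a replicate block, and leaving out each library. No pair of same-age libraries agreed within sampling noise. The fit was tested on simulated data. Amplified reads are not independent molecules, so floors cover counting error only.

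Every member is accounted for: members past the threshold are given with each library's value, and others with a mean of at least 10 CPM with their means, SDs or library values. Members, gene lists and tests were chosen with earlier results of these data known. The list of 86 pathway genes had 1 gene, Ntn3, with no matching identifier, and up to 8 called genes of it with the smallest p are named. Trem2, Neo1 and Dcc were named after their values were seen. Markers of B cells, megakaryocytes, osteoclasts, pericytes, leukocytes and Schwann and neuronal cells were also listed. The last list is reported here for its 2 tested genes only.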

Additional observations from a re-analysis of the deposited data

How the results depend on the processing

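None of the 11 called members changed direction in any of the 15 alternative fits. The called members kept their call in 44 of 66 fits that leave out a library and in 95 of 99 others, and 5 members kept it in every fit. On leaving out a library, members called higher ranged from 1 to 6 (3 with all libraries) and those called lower from 5 to 7 (8 with all). Pathway genes called higher ranged from 4 to 14 (6 with all) and those called lower from 1 to 6 (3 with all), while all genes called higher ranged from 418 to 1459 (909 with all) and lower from 294 to 1168 (731 with all). The DESeq2 test called 1331 genes higher (8.56%) and 1137 lower (7.31%), and of the pathway genes 9 higher (11.7%) and 10 lower (13.0%). It called 4 members higher (10.8%) and 9 lower (24.3%), adding Sema4b and Sema3a.

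Among members that were not called, 9 changed sign on leaving out a library. Their log2 fold changes ranged from -0.26 to 0.066 for Plxnd1, from -0.27 to 0.079 for Plxnc1, from -0.27 to 0.051 for Plxnb2, from -0.22 to 1.28 for Plxna4, from -0.18 to 0.33 for Robo1, from -0.091 to 0.11 for Slit2, from -0.071 to 0.53 for Ntn1, from -0.25 to 0.021 for Sema4d and from -0.10 to 0.62 for Unc5a. Slit2 was also at 0.0048 with upper-quartile factors and 0.0018 with the filter of 50 counts. The cause was not tested.

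The replicate number does not mark a shared batch in the labels, so the libraries were not treated as pairs. Deviations of same-numbered libraries correlated at 0.034 to 0.090, against at most 0.018 for different numbers. Every library thus correlated best with its own number, weakly, and these values do not settle whether the libraries are paired. With the replicate block 2 members were higher and 6 lower (711 and 575 of all genes), and Sema4a, Sema6c and Sema7a lost their call. No scaling or filter moved the median of all genes by more than 0.0067 on the log2 scale. Members under 1 CPM rest on few counts, and so are less precise.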

Other observations

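Markers of other cell types that marrow cultures can hold also differed in the libraries in which the guidance genes were measured. Of 4 tested B cell markers 3 were higher in old libraries, with a summed level of 15.6 to 27.6 CPM in old and 3.09 to 4.76 CPM in young libraries. Of 4 megakaryocyte markers 2, Pf4 and Itga2b, were higher (sum 208.7 to 240.4 CPM in old, 49.3 to 84.9 CPM in young libraries). Pf4 made up most of this sum, and Gp9 and Gp1bb, whose ages overlapped, were not called. Of 5 tested osteoclast markers 1 was higher (sum 197.2 to 280.8 CPM in old, 144.1 to 212.0 CPM in young libraries). Of 5 pericyte and smooth muscle markers Acta2, the smooth muscle actin gene, was higher (3347 to 3844 CPM in old, 1908 to 2487 CPM in young libraries), and Cspg4 and Notch3 were lower. The 4 markers other than Acta2 summed to 32.6 to 34.6 CPM in old and 50.5 to 97.2 CPM in young libraries, and the median log2 fold change of the 5 was -1.02. Of 2 tested neuronal and Schwann markers, Tubb3, a neuronal tubulin gene, was lower (1.35, 2.102 and 1.92 CPM in old, 10.9, 4.52 and 7.63 CPM in young libraries, log2 fold change -2.10, edgeR adjusted p = 0.0114), and S100b did not pass (log2 fold change 0.78, edgeR adjusted p = 0.0832). The leukocyte markers had 2 of 6 lower, Laptm5 and Tyrobp, the latter also given above with Sema6d (summed level of the 6 markers 1367 to 1464 CPM in old, 1554 to 1888 CPM in young libraries). The part of all these markers in the guidance gene results was not tested.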
